A study of Mus musculus with 281 samples.

Results

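The 32 genes described here carry out and control the synthesis of sterols and fatty acids, or remove and carry cholesterol. They were chosen as a fixed list of names, and all 32 were found among the 47752 genes of the deposited gene table. They were read in single cells hand-picked from the cochlear stria vascularis of 129S6 mice. The cells came from mice that were wild type (Slc26a4+/+, the majority), heterozygous (Slc26a4+/-, 40 cells) or null (Slc26a4-/-, 69 cells) for Slc26a4, at postnatal ages between P22 and P44. Slc26a4 encodes pendrin, an anion exchanger of spindle and root cells, and no other allele or agent was named for any group. The study's methods state that the mice were male.

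Cells make cholesterol from acetyl-CoA through the mevalonate steps, which end in farnesyl diphosphate, and then through squalene, lanosterol and a series of sterol intermediates. When sterol in the endoplasmic reticulum is low, SCAP escorts the SREBP factors to the Golgi, where they are released to switch on the synthesis genes, and INSIG proteins hold this escort back when sterol is plentiful. Fatty acid synthesis shares the acetyl-CoA supply, while ABCA1, ABCG1, APOE and, mainly known from neurons, the cholesterol 24-hydroxylase CYP46A1 move cholesterol out of cells.

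Each cell was 1 library, with 1848 to 7932729 estimated counts and a median of 1312950. The 20 cells under 100000 counts were all Slc26a4+/+. Clusters carried the markers of intermediate cells (IMC-like, 82 and 53 cells in 2 clusters, the melanocyte-like cells of the stria), root cells (RC-like, 36 cells), spindle cells (SC-like, 33 cells) and marginal cells (MC-like, 21 cells). The remaining 56 cells stood in 2 clusters that were not named, the larger led by Ighm, cell cycle and histone genes such as Mki67 and blood genes such as Hba-a2. Of the Slc26a4+/+ cells, 73 were IMC-like, 23 were SC-like, 16 were RC-like and 14 were MC-like, and 35 and 11 stood in the unnamed clusters. Levels are CPM, each gene's count scaled so that every cell has the same total, averaged over cells. The labels name no mouse, so each genotype counts as 1 sample and no p-value was computed. The spread is instead shown by run date, of which there were 4, and by session, meaning the cells of 1 genotype and age collected on 1 day and run together. Slc26a4 itself gave mean levels in RC-like cells of run date 4 of 754 CPM in Slc26a4+/+, 568 CPM in Slc26a4+/- and 1898 CPM in Slc26a4-/- cells, so its transcript level does not check the genotype labels.

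In Slc26a4+/+ cells members were called for a cell type about as often as all genes, by the rule given below. Of the 18 sterol synthesis genes, 16 differed at least 2-fold between their highest and lowest named type (on CPM with 1 CPM added). The share of all genes that did so is not given, so that count shows no trait of these genes. Among the named types Scd1, which makes monounsaturated fatty acids, and Apoe were highest in RC-like cells, the cholesterol exporter Abcg1 in MC-like cells, and Cyp46a1 and Dhcr7, the last enzyme of one branch of cholesterol synthesis, in IMC-like cells. A gene was called for a cell type where its mean was at least 2-fold above the next type, on CPM with 1 CPM added. By that rule 10 of the 32 members were called, against 34.4% of all 11382 genes with a mean of at least 10 CPM in some type. IMC-like cells held 3 of the calls (8.54% of all genes), RC-like cells 6 (11.5%), MC-like cells 1 (6.13%) and SC-like cells none (8.21%). The median difference between the highest and the next type was 0.43 (log2) over the members and 0.64 over all tested genes. The heat map of mean levels shows all values.

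**Figure D1:**
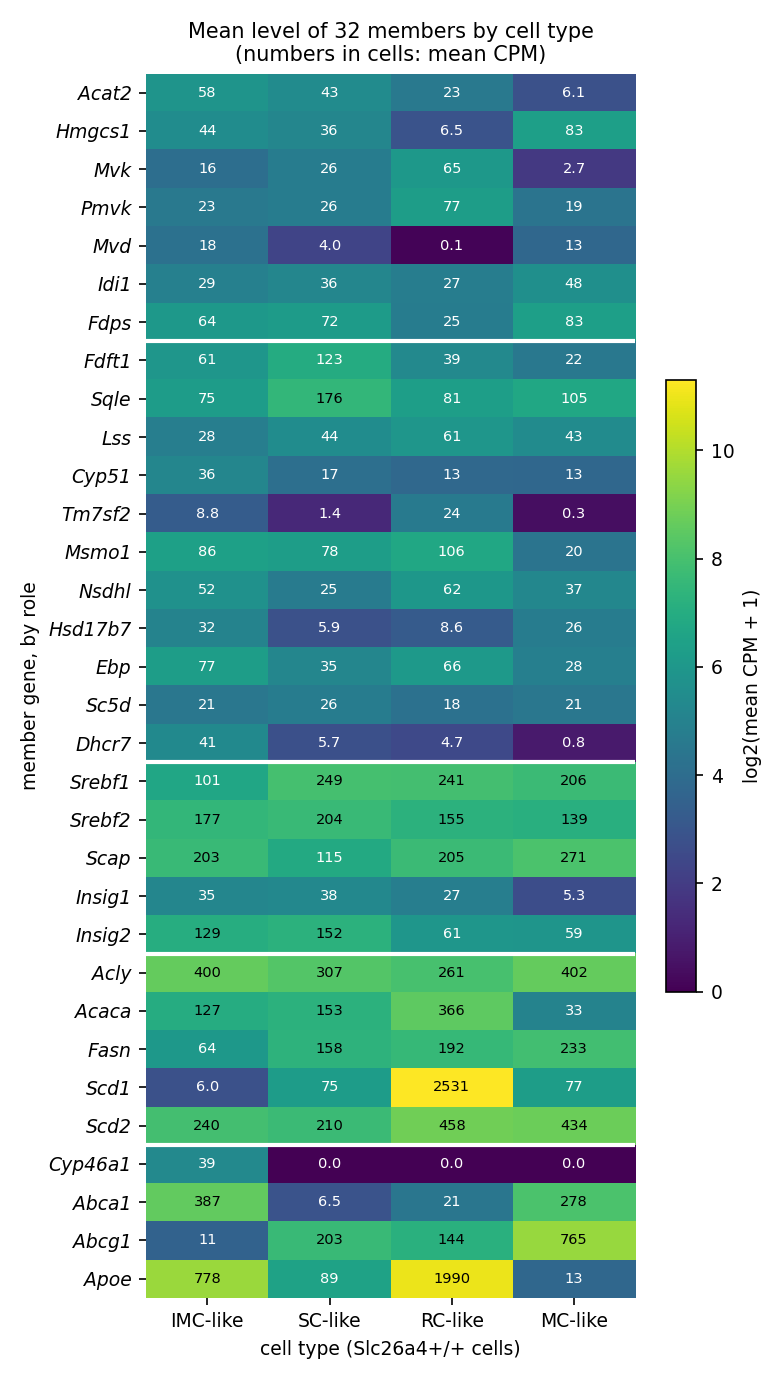
Mean CPM of the 32 members (rows, grouped by role) in Slc26a4+/+ cells of 4 cell types (columns), with colour giving log2 of the mean CPM plus 1 and numbers giving the mean CPM. Scd1 stands out in RC-like cells at 2531 CPM and Cyp46a1 in IMC-like cells at 38.5 CPM, and no cell type is highest throughout the sterol synthesis genes.

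Among the 7 genes of the mevalonate steps, no type led throughout. Hmgcs1, which makes HMG-CoA, was highest in MC-like cells at 83.2 CPM, against 43.8 CPM in IMC-like, 35.97 CPM in SC-like and 6.47 CPM in RC-like cells. Fdps, the farnesyl diphosphate synthase, lay at 82.8 CPM in MC-like, 72.3 CPM in SC-like, 64.3 CPM in IMC-like and 25.5 CPM in RC-like cells. Mvk and Pmvk, the mevalonate and phosphomevalonate kinases, were called for RC-like cells, at 65.2 CPM and 77.2 CPM. The lead of Mvk rested on run date 1. RC-like cells led in 1 of the 3 run dates with at least 3 of them, and without run date 1 the log2 lead turned to -2.13. Pmvk led in 2 of 3.

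Among the 11 genes from squalene to cholesterol, Dhcr7 had the largest lead among the named types. The gene (ENSMUSG00000058454, chr7:143823145-143848410, plus strand, GRCm38) averaged 40.8 CPM in IMC-like cells, 5.68 CPM in SC-like, 4.66 CPM in RC-like and 0.783 CPM in MC-like cells, and IMC-like cells led in 4 of 4 run dates, with means of 47.4, 17.3, 43.9 and 47.9 CPM. It was found in 32 of 73 IMC-like, 9 of 23 SC-like, 6 of 16 RC-like and 6 of 14 MC-like cells. These shares were close at 1 count, in cells of unequal depth. At 10 counts or more Dhcr7 was found in 15, 2, 1 and 0 of these cells. With the deeper cells thinned to an equal count, Dhcr7 was found in 18 of 68, 4 of 21, 2 of 15 and 2 of 14 cells. The 11 Slc26a4+/+ cells of the smaller unnamed cluster averaged more, at 74.9 CPM of Dhcr7 and 70.7 CPM of Cyp51. Cyp51, the lanosterol demethylase (ENSMUSG00000001467, chr5:4081145-4104746, minus strand), was called for IMC-like cells at 35.8 CPM, but led in 0 of 4 run dates, and its IMC-like means of 79.3, 0.03, 29.9 and 1.35 CPM differed more between run dates than its means did between cell types. Tm7sf2, a sterol reductase, reached 23.9 CPM in RC-like cells and led there in 1 of 3 run dates. Without run date 4 its lead turned to -2.71. Sqle, the squalene epoxidase, ranged from 74.8 CPM in IMC-like to 175.7 CPM in SC-like cells, and Msmo1, a methylsterol oxidase, from 19.5 CPM in MC-like to 105.6 CPM in RC-like cells. The summed level of all 18 sterol synthesis genes was 768 CPM in IMC-like, 780 CPM in SC-like, 707 CPM in RC-like and 570 CPM in MC-like cells, and single cells of each type spread from 50.1 CPM or less to 1579 CPM or more, so the cell types overlapped.

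None of the 5 control genes was called for a type. Srebf2, the SREBP best known for sterol genes, lay between 139.1 CPM in MC-like and 203.6 CPM in SC-like cells. Srebf1, better known for fatty acid genes, lay at 100.8 CPM in IMC-like cells and between 205.6 and 249.2 CPM in the other 3 types. Insig1 was lowest in MC-like cells at 5.28 CPM and between 27.4 and 37.7 CPM elsewhere.

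The fatty acid genes showed the largest contrast in a single enzyme. Scd1 (ENSMUSG00000037071, chr19:44394455-44407879, minus strand) averaged 2531 CPM in RC-like cells, 77.5 CPM in MC-like, 74.6 CPM in SC-like and 5.95 CPM in IMC-like cells, a 32.3-fold lead over the next type. The RC-like means were 988, 4308 and 2128 CPM in the 3 run dates with at least 3 cells, all above the other types. Single Slc26a4+/+ RC-like cells ran from 1.72 to 11762 CPM around a median of 1392 CPM, so the level also varied widely within the type. Scd1 was found in 16 of 16 RC-like cells and in 39 of 73 IMC-like cells, and after thinning each cell to 100000 counts in 13 of 15 and 15 of 68. Acaca, the acetyl-CoA carboxylase, reached 366 CPM in RC-like and 152.8 CPM in SC-like cells, but its lead turned to -0.11 without run date 1. Scd2, a close relative of Scd1, differed much less, from 210 CPM in SC-like to 458 CPM in RC-like cells. Acly and Fasn, which supply acetyl-CoA and build palmitate, were not called. How the authors' pseudoalignment divided reads shared by Scd1 and Scd2 was not tested.

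Of the removal and transport genes, Cyp46a1 was nearly confined to IMC-like cells among the named types. Its mean was 38.5 CPM there, with 24 of 73 cells holding a count, against 1 of 23 SC-like cells and 0 of 16 RC-like and 0 of 14 MC-like cells. The exact (Clopper-Pearson) 95% upper limits of the last shares were 20.6% and 23.2%, covering counting error only. IMC-like means were 14.4, 90.1, 41.1 and 7.02 CPM in the 4 run dates, and the larger unnamed cluster averaged 22.3 CPM. Abcg1 (ENSMUSG00000024030, chr17:31057675-31117988, plus strand) averaged 765 CPM in MC-like cells, 203.4 CPM in SC-like, 143.96 CPM in RC-like and 10.7 CPM in IMC-like cells, and led in 2 of 2 run dates at 659 and 895 CPM. Its relative Abca1 was high in IMC-like cells (387 CPM) and MC-like cells (278.1 CPM) and low in RC-like (20.7 CPM) and SC-like cells (6.53 CPM). The MC-like value of Abca1 came from sessions that ranged from 0.183 to 972 CPM.

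Apoe, the lipid carrier (ENSMUSG00000002985, chr7:19696109-19699188, minus strand), averaged 1990 CPM in RC-like, 778 CPM in IMC-like, 89.4 CPM in SC-like and 12.7 CPM in MC-like cells. RC-like cells led in 3 of 3 run dates, at 1244, 1209 and 3387 CPM, and their cells ran from 0 to 6341 CPM. Without run date 4 the log2 lead fell to 0.81, under 2-fold, and the call was lost. Macrophages also express Apoe, and 3 of the 16 RC-like cells summed to at least 10 CPM over the 7 macrophage markers. Without them the mean was 1794 CPM for Apoe and 1942 CPM for Scd1. On the mean of log2 values the lead of RC-like over IMC-like cells for Apoe was -0.63, so IMC-like cells stood higher. It was found in 71 of 73 IMC-like and 14 of 16 RC-like cells, and in 66 of 68 and 12 of 15 after thinning.

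Comparison of the genotypes was possible within a run date, where at least 3 cells of a type were present in both. IMC-like cells met this in run date 2 (12 Slc26a4+/+ and 27 Slc26a4-/- cells) and run date 4 (7 and 12 cells, with 23 Slc26a4+/- cells), and RC-like cells in run date 4. SC-like and MC-like cells met it in none. In Slc26a4-/- IMC-like cells 6 members were at least 2-fold higher in both run dates, namely Fdps, Fdft1, Cyp51, Tm7sf2, Dhcr7 and Fasn, and 1, Cyp46a1, was at least 2-fold lower. Over the 8709 genes with a mean of at least 10 CPM in these cells, 8.55% were higher and 5.92% lower by that rule, and 30 of the 32 members were among the genes tested (Pmvk and Abcg1 were too low). By a second rule, session means of at least 2 cells that did not overlap between the genotypes in either run date, Cyp51, Dhcr7 and Fasn were higher and no member was lower, against 1.22% and 0.379% of all genes. Within 1 run date these shares were wider, with 26.2% of genes higher and 21.8% lower by fold in run date 2 and 22.8% and 19.4% in run date 4, and with session means apart upward for 4.92% and downward for 1.72% in run date 2 and for 16% and 8.26% in run date 4.

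**Figure D2:**
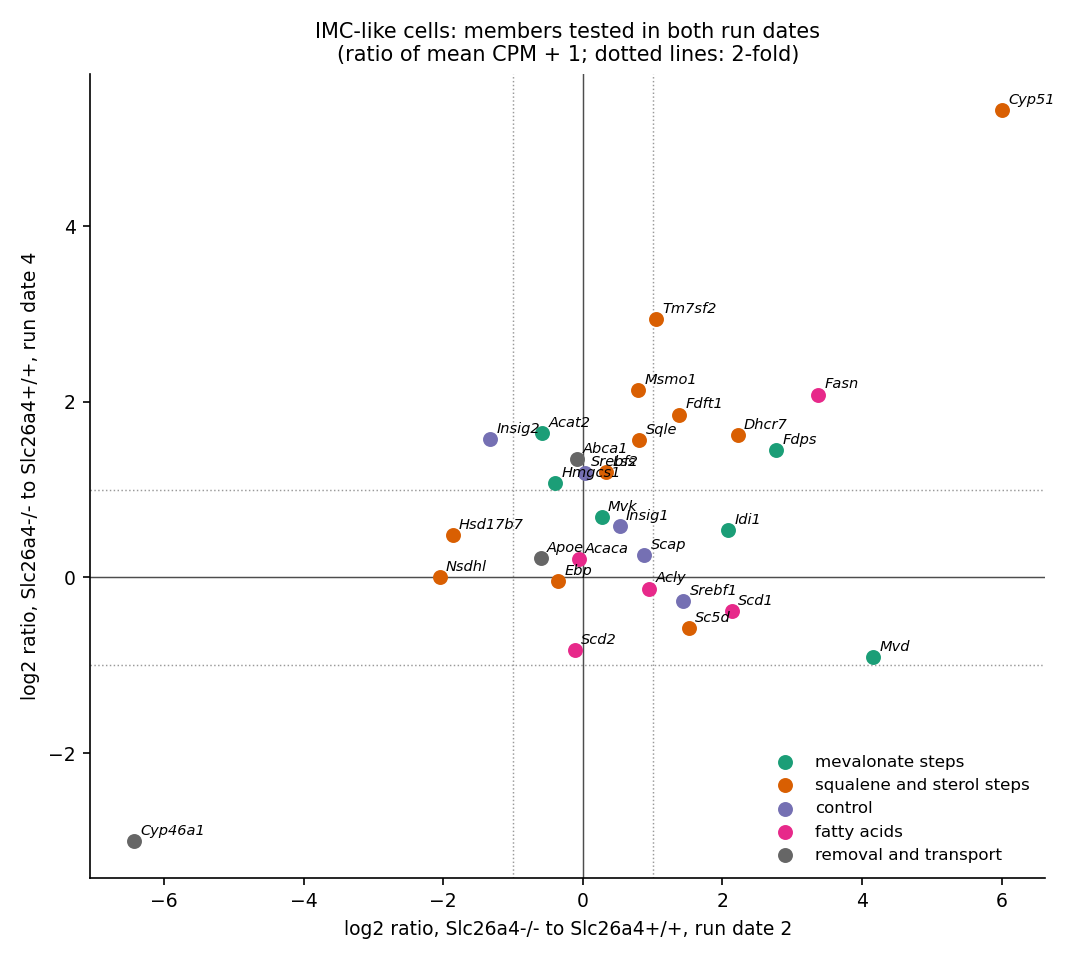
Log2 ratio of mean CPM plus 1 in Slc26a4-/- to Slc26a4+/+ IMC-like cells for the 30 tested members, run date 2 on the horizontal axis and run date 4 on the vertical, coloured by role, with dotted lines at 2-fold. Fdps, Fdft1, Cyp51, Tm7sf2, Dhcr7 and Fasn lie past the line in the upper right and Cyp46a1 in the lower left.

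Cyp51 was almost absent from the Slc26a4+/+ IMC-like cells of both run dates. In run date 2 its Slc26a4+/+ sessions of at least 2 cells stood at 0.137, 0 and 0 CPM (P42, P32 and P23), and the Slc26a4-/- sessions at 65.4, 32.04, 93.2, 107.6 and 52.2 CPM (P44, P31, P25, P24 and P29). In run date 4 the Slc26a4+/+ sessions stood at 4.06, 0.664 and 0 CPM (P29, P33 and P34) and the Slc26a4-/- sessions at 130 and 49.5 CPM (P33 and P29). Every Slc26a4-/- session of at least 2 cells thus lay above every Slc26a4+/+ session, and a single Slc26a4-/- cell of P29 in run date 2 was at 0. The log2 ratios were 6.0 and 5.32. In run date 2 the Slc26a4+/+ cells held 1 count in all and the Slc26a4-/- cells 1652. The ratio of pooled CPM was 1104, with an exact 95% counting interval from 197.9 to 43642. That interval treats each count as independent and leaves out amplification and the spread between cells, so it is too narrow. The gene was found in 1 of 12 and 11 of 27 cells in run date 2 and in 2 of 7 and 10 of 12 cells in run date 4.

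Slc26a4+/+ IMC-like cells of the other run dates did hold Cyp51. Over all 18 Slc26a4+/+ sessions of at least 2 cells it ran from 0 to 152.8 CPM around a median of 0.401 CPM, and the 7 Slc26a4-/- sessions from 32.04 to 130 CPM fell within that range.

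Dhcr7 in run date 2 stood at 0.633, 1.11 and 6.03 CPM in the Slc26a4+/+ sessions and at 33.9, 48.2, 75.1, 165.1 and 104.7 CPM in the Slc26a4-/- sessions. In run date 4 it stood at 42.1, 35.1 and 60.3 CPM against 155.3 and 149.5 CPM. The sessions did not overlap in either run date, though 1 Slc26a4+/+ cell of P24 in run date 2 reached 178.5 CPM. The log2 ratios were 2.22 and 1.62, and that of run date 2 rose to 4.55 without the Slc26a4+/+ cell of P24. Over all run dates the Slc26a4+/+ sessions ran from 0 to 435 CPM around a median of 7.52 CPM, which takes in the 33.9 to 165.1 CPM of the Slc26a4-/- sessions.

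Fasn, the fatty acid synthase (ENSMUSG00000025153, chr11:120805846-120824547, minus strand), stood in run date 2 at 0.127, 0.243 and 84.5 CPM in Slc26a4+/+ sessions and at 653, 410, 215.8, 239.2 and 230 CPM in Slc26a4-/- sessions. In run date 4 it stood at 41.1, 0 and 42.6 CPM against 153.3 and 91.4 CPM. Again no session of at least 2 cells overlapped within a run date, with log2 ratios of 3.37 and 2.08. The ratio of run date 2 rose to 7.88 without the Slc26a4+/+ session of P23, the one at 84.5 CPM. It was found in 6 of 12 and 26 of 27 cells in run date 2 and in 3 of 7 and 12 of 12 cells in run date 4. Thinned to 100000 counts a cell, the shares were 1 of 12 and 20 of 27, and 2 of 7 and 8 of 12. Slc26a4+/+ sessions of all run dates reached 440 CPM of Fasn, above 6 of the 7 Slc26a4-/- sessions.

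**Figure D3:**
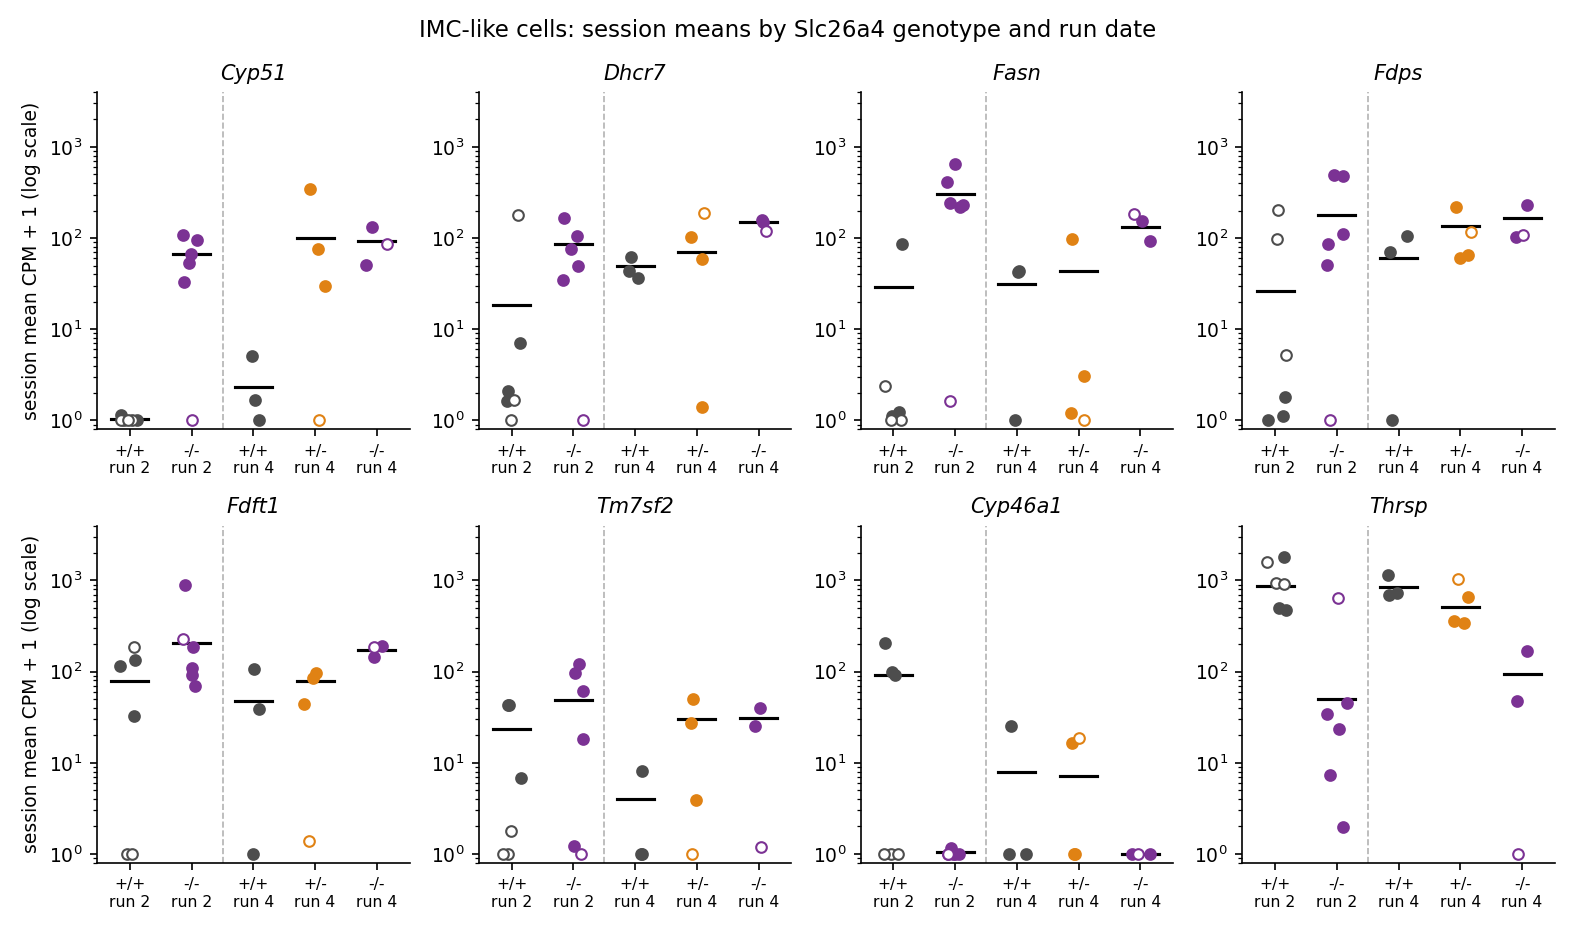
Mean CPM plus 1 (log scale) of each session of IMC-like cells for the members called in both run dates and for Thrsp, a lipogenesis gene beside the members, by Slc26a4 genotype and run date, with filled points for sessions of at least 2 cells, open points for single cells and bars for the mean over cells. For Cyp51, Dhcr7 and Fasn the filled Slc26a4-/- points lie above all filled Slc26a4+/+ points of the same run date, and for Cyp46a1 the Slc26a4-/- sessions lie between 0 and 0.152 CPM.

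The other 3 members that were higher rested on fewer sessions. Fdps in run date 2 stood at 0.127, 0 and 0.786 CPM in Slc26a4+/+ sessions of at least 2 cells and at 481, 110, 49.4, 489 and 84.8 CPM in Slc26a4-/- sessions, while 3 single Slc26a4+/+ cells gave 202.7, 96.8 and 4.25 CPM. Fdps overlapped in run date 4, with 0, 103.3 and 69.8 CPM against 226.97 and 100.7 CPM. Its log2 ratios were 2.77 and 1.45, and the call was lost without the Slc26a4+/+ session of P29 or the Slc26a4-/- session of P33 in run date 4, with the lowest ratio at 0.77.

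Fdft1, the squalene synthase, overlapped in run date 2, at 131.6, 114.9 and 31.7 CPM against 67.99, 110, 184.7, 891 and 91.6 CPM. Without the session of 891 CPM, 3 cells of P24, its log2 ratio fell from 1.38 to 0.60 and the call was lost. It stood in run date 4 at 0, 106.6 and 37.7 CPM against 191.4 and 144.1 CPM, with a log2 ratio of 1.85.

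Tm7sf2 also overlapped in run date 2, at 5.74, 41.5 and 42.04 CPM against 0.236, 60.5, 95.3, 120 and 17.4 CPM, and the log2 ratio of 1.06 fell to as little as 0.58 without the Slc26a4-/- session of P25, with the call lost also without that of P24 or the Slc26a4+/+ sessions of P40, P42, P34 or P24. It stood in run date 4 at 0, 0 and 7.08 CPM against 39.3 and 24.5 CPM, with a log2 ratio of 2.94.

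Cyp46a1 went the other way. In run date 2 the Slc26a4+/+ sessions of at least 2 cells stood at 90.95, 206.3 and 98.9 CPM and the Slc26a4-/- sessions at 0, 0, 0, 0 and 0.152 CPM. The Slc26a4+/+ sessions of run date 4 stood at 0, 24.6 and 0 CPM and both Slc26a4-/- sessions at 0 CPM. The groups were apart in run date 2, though 3 single Slc26a4+/+ cells were at 0, and overlapped at 0 in run date 4, where the call rested on the 1 Slc26a4+/+ session of P33. It was found in 5 of 12 Slc26a4+/+ and 1 of 27 Slc26a4-/- cells in run date 2, and in 2 of 7 and 0 of 12 cells in run date 4. The 27 Slc26a4-/- cells of run date 2 held 1 count in all against 1445 in the 12 Slc26a4+/+ cells. The ratio of pooled CPM was 2162, with an exact 95% counting interval from 387 to 85444, too narrow because it treats counts as independent. The ratio in run date 4 was at least 103.8-fold, set against 3 counts over the 12 cells at 0. Its Slc26a4+/+ mean there, 7.02 CPM, lay under the filter of 10 CPM, which Cyp46a1 passed over both run dates together. Without the Slc26a4+/+ session of P33 the log2 ratio of run date 4 was 0. Over all run dates the Slc26a4+/+ sessions of Cyp46a1 ran from 0 to 206.3 CPM around a median of 14.1 CPM, and the 7 Slc26a4-/- sessions from 0 to 0.152 CPM. Cyp46a1 lies at chr12:108334381-108362234 (plus strand, GRCm38), on the same chromosome as Slc26a4 at chr12:31519827-31559969.

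As groups, 1 of 6 tested mevalonate genes, 4 of 11 genes from squalene onward and 1 of 5 fatty acid genes were higher in both run dates. The share over all genes was 8.55%, and 0 of 5 control genes were called. The median log2 ratio of the 17 tested sterol synthesis genes was 0.81 in run date 2 and 1.2 in run date 4, against 0.06 and -0.02 over all 8709 genes. Values above 0 were found for 12 and 13 of the 17, against 51.74% and 49.36% of all genes. The genes did not move as a block. Acat2, Hmgcs1, Sqle and Msmo1 had log2 ratios of -0.58, -0.40, 0.81 and 0.79 in run date 2 and of 1.64, 1.07, 1.56 and 2.13 in run date 4. Mvd, Idi1 and Sc5d had 4.16, 2.09 and 1.52 in run date 2 and -0.91, 0.54 and -0.57 in run date 4. Nsdhl, a sterol dehydrogenase, had -2.05 in run date 2 and 0.00 in run date 4. Ebp, the sterol isomerase, stayed near 0 at -0.35 and -0.04.

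Srebf2 had log2 ratios of 0.02 and 1.19, Srebf1 1.44 and -0.27, Scap 0.88 and 0.26, and Insig1 0.53 and 0.58, so no control gene passed 2-fold in both run dates. Acly, Acaca and Scd2 lay between -0.83 and 0.95. Abca1 had -0.09 and 1.35 and Apoe -0.60 and 0.22.

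The summed level of the 18 sterol synthesis genes averaged 745 CPM over the Slc26a4+/+ and 1126 CPM over the Slc26a4-/- IMC-like cells of run date 2, and 744 and 1679 CPM in run date 4. The medians were closer in run date 2, at 537 and 644 CPM, than in run date 4, at 591 and 1654 CPM. By session it stood in run date 2 at 740, 1001 and 865 CPM against 1271, 1244, 1057, 2609 and 714 CPM, and in run date 4 at 404.97, 804 and 931 CPM against 1805 and 1485 CPM. The sessions overlapped in run date 2, through the Slc26a4-/- session of P29, and not in run date 4. Over all run dates the Slc26a4+/+ sessions ran from 342 to 1486 CPM.

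**Figure D4:**
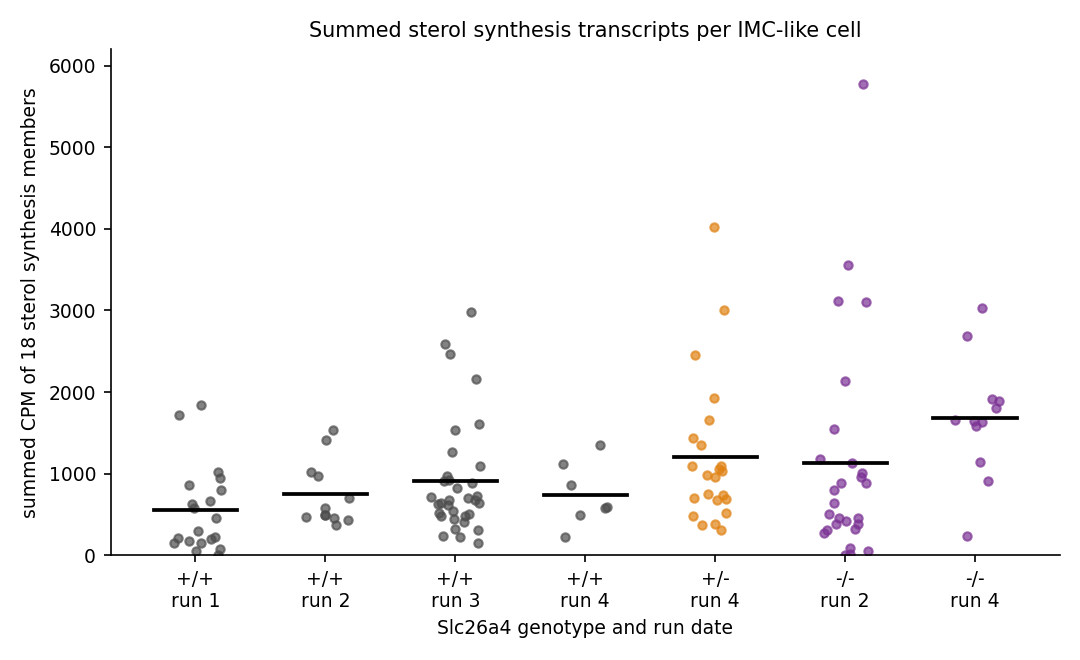
Summed CPM of the 18 sterol synthesis genes in each IMC-like cell (vertical axis, linear), by Slc26a4 genotype and run date, with 1 point a cell and a bar at the mean. The Slc26a4-/- cells of run date 4 centre at a median of 1654 CPM, above the 4 Slc26a4+/+ medians of 376 to 679 CPM. The Slc26a4-/- cells of run date 2 centre at 644 CPM, within that range, and spread from 6.10 to 5771 CPM.

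Depth and cell state moved with genotype in these cells. The median count was 1310246 in Slc26a4+/+ and 655962 in Slc26a4-/- cells of run date 2, and 1831846 and 3940874 in run date 4, so the deeper genotype was not the same in the 2 run dates. The median summed level of 8 early response and stress genes was 5.64 CPM against 59.01 CPM in run date 2 and 139.2 CPM against 268.1 CPM in run date 4. IMC markers were higher in the Slc26a4-/- cells, with medians of 51730 against 69370 CPM and 54870 against 94310 CPM. None of the 7 macrophage markers reached a mean of 10 CPM in any of these groups. The summed level of 5 pericyte markers was higher in the Slc26a4-/- cells, with a median of 13.1 CPM (0 to 782.7) against 36.9 CPM (0 to 2908) in run date 2 and of 3.26 CPM (0 to 632.9) against 155.8 CPM (0.831 to 1025) in run date 4. Nearly all of it was Cspg4, since none of the other 4 (Pdgfrb, Kcnj8, Notch3 and Abcc9) averaged above 2.73 CPM in any of these groups, and Kcnj8 was at 0 in all. Cspg4 was also among the leading genes of both IMC-like clusters. The 10 MC markers were lower, with medians of 296.4 CPM (45.6 to 2059) against 180.2 CPM (7.68 to 1085) in run date 2 and of 661.6 CPM (147.5 to 1483) against 234.9 CPM (74.8 to 531.1) in run date 4. The part of depth, stress genes and markers of other cells in the results was not tested. The IMC-like cells formed 2 clusters, in which the Slc26a4+/+ cells fell 4 to 8 in run date 2 and 7 to 0 in run date 4, and the Slc26a4-/- cells 14 to 13 and 11 to 1. In the first cluster alone 9 members were higher, the same 6 with Hmgcs1, Sqle and Srebf2, and Cyp46a1 was lower. That comparison had only 4 Slc26a4+/+ cells in run date 2. The share of all genes called in it is not given, so its count is not set against that of both clusters.

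The promoters of the 3 members that were higher by both rules and of Cyp46a1, the member that was lower, are shown because SREBP target promoters are known to pair a sterol element with the CCAAT box of the factor NF-Y. The sequences are the 250 bases before the RefSeq start site in GRCm38.p6, with CCAAT on either strand (ATTGG when it lies on the other strand) in capitals, for Cyp51 (chr5:4104698-4104947, minus strand), the third listed start of Dhcr7 (chr7:143829964-143830213, plus strand), Fasn (chr11:120824548-120824797, minus strand) and Cyp46a1 (chr12:108334066-108334315, plus strand).
Cyp51: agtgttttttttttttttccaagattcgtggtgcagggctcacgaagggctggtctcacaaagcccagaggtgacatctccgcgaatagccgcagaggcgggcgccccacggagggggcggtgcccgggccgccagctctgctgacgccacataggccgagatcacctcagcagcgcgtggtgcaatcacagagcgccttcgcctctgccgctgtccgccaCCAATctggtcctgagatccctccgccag
Dhcr7: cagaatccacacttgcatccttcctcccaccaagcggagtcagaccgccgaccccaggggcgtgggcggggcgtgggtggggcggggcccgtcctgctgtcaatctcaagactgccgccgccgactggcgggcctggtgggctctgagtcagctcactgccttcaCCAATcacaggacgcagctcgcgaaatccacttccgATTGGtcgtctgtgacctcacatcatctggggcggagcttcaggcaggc
Fasn: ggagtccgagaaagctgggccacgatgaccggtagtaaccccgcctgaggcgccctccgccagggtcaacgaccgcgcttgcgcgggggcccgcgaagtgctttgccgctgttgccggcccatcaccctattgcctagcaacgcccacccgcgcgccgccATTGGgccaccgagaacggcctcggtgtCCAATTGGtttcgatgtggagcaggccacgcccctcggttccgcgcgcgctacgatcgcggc
Cyp46a1: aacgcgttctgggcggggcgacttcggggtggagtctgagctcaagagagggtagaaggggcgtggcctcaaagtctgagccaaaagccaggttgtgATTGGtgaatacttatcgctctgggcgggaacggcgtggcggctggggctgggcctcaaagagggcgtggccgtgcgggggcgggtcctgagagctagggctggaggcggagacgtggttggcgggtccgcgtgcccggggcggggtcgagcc

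Counted back from the RefSeq start site, CCAAT began at position -29 in Cyp51, -85 and -49 in Dhcr7 and -90, -62 and -59 in Fasn, and further upstream in Cyp46a1. The windows of Cyp51 and of the third Dhcr7 start reach into the gene spans given above, which begin at other start sites. In Fasn the last pair overlap. The other 2 listed starts of Dhcr7 held none. Promoters were listed for 26 of the 32 members (not for Fdps, Fdft1, Sqle, Scd1, Scd2 and Abcg1), and 20 of the 26, or 76.9%, held CCAAT in at least 1 listed window, against 37.5% of 27025 genes and 33.8% of 32851 promoters. Of the 15 sterol synthesis genes with a window, 14 held it. Among genes with 1 start site it was 16 of 20 members against 34.7% of genes. The letters TCACNCCAC, searched on both strands as one form of a sterol element, were found in Hmgcs1 alone, and in 1.22% of genes. CACGTG was found in 6 of the 26, against 6.86% of genes. These are matches of letters in a window and not binding sites.

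The heterozygous cells were read in run date 4 only, against the same Slc26a4+/+ and Slc26a4-/- cells, so the comparisons that follow share cells. In Slc26a4+/- IMC-like cells 10 of 30 tested members were at least 2-fold higher than in Slc26a4+/+ cells, against 24.1% of all genes. Lower was 1, Mvd, against 16.1%. Leaving out 1 session gave 1 to 4 members lower, with the share of all genes in those omissions not given. The higher members were Pmvk, Fdps, Lss, Cyp51, Tm7sf2, Msmo1, Srebf2, Insig1, Insig2 and Abca1. By session Cyp51 stood at 29.01, 341 and 75.5 CPM in Slc26a4+/- sessions (P33, P33 and P26), all above the 0 to 4.06 CPM of Slc26a4+/+ sessions, and overlapping the 130 and 49.5 CPM of Slc26a4-/- sessions. Abca1 was also apart, at 505, 296.9 and 256.3 CPM against 131.1, 154.8 and 172.5 CPM. Session means apart in this direction were found for 7.73% of genes, and in the other for 4.98% of genes and for Nsdhl among the members.

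Dhcr7 and Fasn did not follow Cyp51 in the heterozygous cells. Dhcr7 stood at 57.7, 0.392 and 100.8 CPM in Slc26a4+/- sessions, on both sides of the Slc26a4+/+ sessions, and below both Slc26a4-/- sessions. Fasn stood at 95.7, 0.201 and 2.07 CPM, of which the first lay above all Slc26a4+/+ sessions and above 1 of the Slc26a4-/- sessions, and the other 2 within the Slc26a4+/+ range. Cyp46a1 stood at 0, 0 and 15.6 CPM, with a count in 4 of 23 cells, and overlapped both other genotypes. The median log2 ratio of the 18 sterol synthesis genes was 0.71 against Slc26a4+/+ cells, with all genes at 0.03.

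Between Slc26a4-/- and Slc26a4+/- IMC-like cells, 6 members were at least 2-fold higher in the null cells (Acat2, Hmgcs1, Mvd, Fdft1, Dhcr7 and Fasn, against 12.9% of genes) and 3 lower (Pmvk, Lss and Insig1, against 16.3%). Session means were apart for Acat2, Mvd, Fdft1, Nsdhl, Hsd17b7 and Dhcr7 upward, against 12.1% of genes, and for Insig1 downward, against 8.49%. Insig1 stood at 34.4 and 43.6 CPM in Slc26a4-/- sessions and at 50.2, 170 and 74.2 CPM in Slc26a4+/- sessions, a narrow gap. The summed sterol synthesis level of the Slc26a4+/- sessions, 1103, 1238 and 1366 CPM, lay between those of the other genotypes.

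In RC-like cells of run date 4, with 5 Slc26a4+/+ and 7 Slc26a4-/- cells in 2 sessions each, members moved in both directions. At least 2-fold higher in Slc26a4-/- cells were 9 of 28 tested members (Fdft1, Cyp51, Msmo1, Nsdhl, Hsd17b7, Ebp, Scap, Insig2 and Fasn), against 33.5% of all genes, and lower were 10 (Acat2, Pmvk, Sqle, Lss, Tm7sf2, Srebf2, Scd1, Scd2, Abcg1 and Apoe), against 25.1%. Both shares are read against that wide background. Without the Slc26a4+/+ session of P33, 15 members were higher and 9 lower, and without the Slc26a4-/- session of P29, 12 and 8. The shares of all genes are not given for these omissions, so these counts are not set against 33.5% and 25.1%. Session means were apart upward for Fdft1, Cyp51, Msmo1 and Ebp, against 20.3% of genes, and downward for Tm7sf2, Scd1, Abcg1 and Apoe, against 12.3%.

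Cyp51 was near 0 in the Slc26a4+/+ RC-like sessions, at 1.29 and 0 CPM (P33 and P34), and stood at 58.5 and 73.1 CPM in the Slc26a4-/- sessions (P29 and P34). The Slc26a4+/+ cells held 1 count against 1366. The ratio of pooled CPM was 432, with an exact 95% counting interval from 77.4 to 17080, too narrow because it treats counts as independent. Ebp stood at 0.787 and 0.685 CPM against 127.2 and 99.5 CPM, and Msmo1 at 3.65 and 2.27 CPM against 193.99 and 88.01 CPM. In both genes the genotypes were far apart in run date 4, yet Slc26a4+/+ RC-like cells of all run dates averaged 66.1 CPM of Ebp and 105.6 CPM of Msmo1.

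Scd1 stood at 770 and 3033 CPM in the Slc26a4+/+ sessions and at 647 and 429 CPM in the Slc26a4-/- sessions of RC-like cells, with a log2 ratio of -2.11. Apoe stood at 5783 and 1790 CPM against 36.1 and 567 CPM, with a log2 ratio of -3.02. The gap was narrow for Scd1 and wide for Apoe. Within the Slc26a4+/+ cells, Apoe stood at 5225, 6341 and 4900 CPM where Slc26a4 was at 33.54, 3.149 and 0 CPM. It stood at 468.2 and 2.783 CPM where Slc26a4 was at 2885 and 848.3 CPM. In Slc26a4-/- cells, Apoe stood at 17.61 and 1774 CPM where Slc26a4 was at 1.078 and 1.869 CPM. The others had 1179 to 3959 CPM of Slc26a4 and 36.04 to 567.5 CPM of Apoe. The part of this mix in the Apoe ratio was not tested. In run date 2, where 1 Slc26a4+/+ RC-like cell allowed no comparison, a Slc26a4-/- cell reached 30546 CPM of Scd1, above every Slc26a4+/+ cell. Apoe in the 14 Slc26a4-/- RC-like cells of both run dates ran from 1.46 to 1774 CPM around a median of 153.2 CPM, the 16 Slc26a4+/+ cells had a median of 863 CPM and the 6 Slc26a4+/- cells one of 3046 CPM. Without the 1 Slc26a4+/+ cell of run date 4 with macrophage markers, the Slc26a4+/+ means were 2928 CPM for Apoe and 2492 CPM for Scd1. Abcg1 stood at 67.4 and 226.3 CPM against 65.5 and 2.28 CPM, so it was apart by very little. Median depth was 788847 counts in the Slc26a4+/+ and 2620021 in the Slc26a4-/- cells. Markers of other cells also differed between these 5 and 7 cells. The summed level of 3 basal cell markers had a median of 1135 CPM (0 to 1658) in Slc26a4+/+ and 88.8 CPM (2.51 to 967.1) in Slc26a4-/- cells, where Sox8 was at 0. The 10 MC markers had medians of 933.5 CPM (243.4 to 3981) and 195.8 CPM (1.98 to 521.8), and the 8 SC markers of 748.2 CPM (11.1 to 1324) and 1616 CPM (717.9 to 3727). The part of depth and of these markers was not tested.

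**Figure D5:**
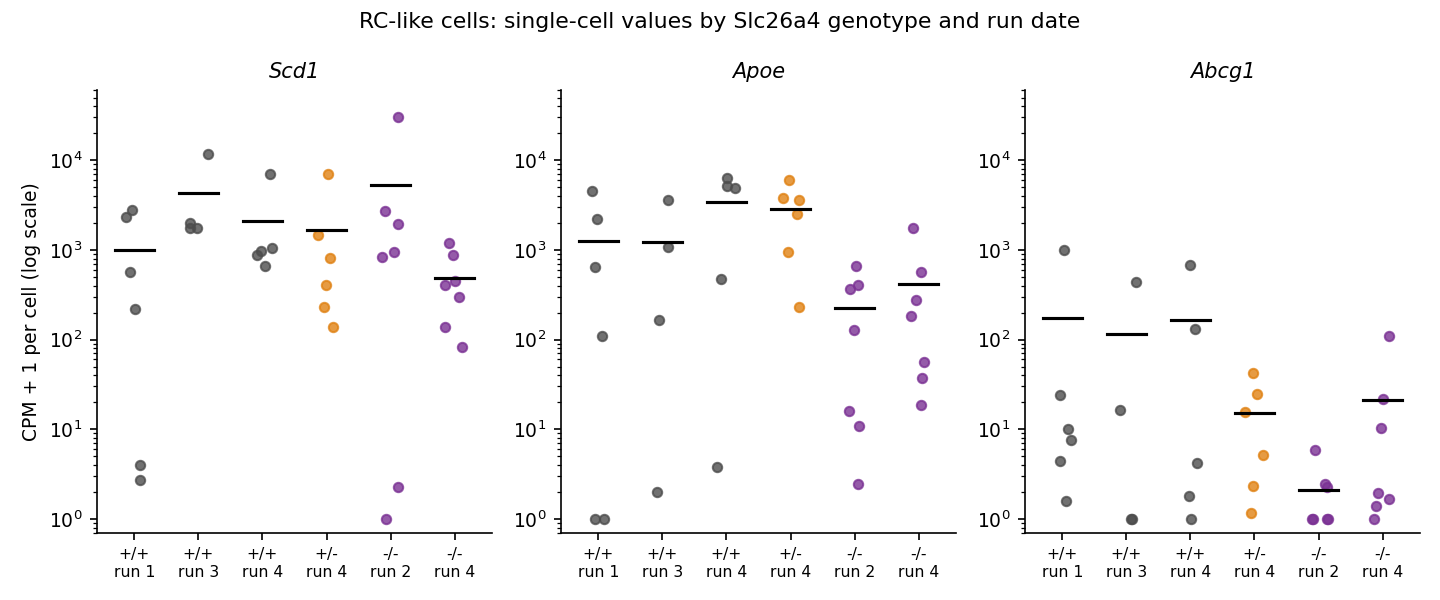
CPM plus 1 (log scale) of Scd1, Apoe and Abcg1 in single RC-like cells, by Slc26a4 genotype and run date, with 1 point a cell and a bar at the mean (the single Slc26a4+/+ cell of run date 2 is not drawn). In run date 4 all 3 genes are lower on average in Slc26a4-/- than in Slc26a4+/+ cells, and the highest Scd1 level, 30546 CPM, is in a Slc26a4-/- cell of run date 2.

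The median log2 ratio of the 15 tested sterol synthesis genes in RC-like cells was 0.66, against 0.20 over all genes. It turned to -0.05 when cell types were set by marker score and to -0.03 when sessions were weighted equally. Tm7sf2 went in opposite directions in the 2 cell types of run date 4, at 2.94 in IMC-like and -1.90 in RC-like cells, a difference that was not tested.

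Within Slc26a4+/+ IMC-like cells the sterol synthesis genes hardly rose and fell together from cell to cell. The Spearman correlation of each gene with the sum of the others had a median of 0.19, -0.10 and 0.05 in run dates 1, 2 and 3, over 20, 12 and 34 cells that shared a run date, against 0.02, 0.04 and -0.01 for other genes. In counts this sparse, values so near 0 are no finding.

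Of 41 other genes of these pathways, listed beside the members, 33 were tested between cell types and 10 called, against 34.4% of all genes. The largest leads were those of Thrsp, a gene tied to fatty acid synthesis, in IMC-like cells (783 CPM, 7.92-fold over the next type), of Acsl3, an acyl-CoA synthetase, in RC-like cells (471 CPM, 5.65-fold) and of Apod, a lipid carrier, in RC-like cells (227.9 CPM, 3.75-fold). Between the genotypes 31 were tested in IMC-like cells of both run dates, of which Mylip was higher in Slc26a4-/- cells, against 8.55% of all genes, and Thrsp, Vldlr and Fads2 were lower, against 5.92%. Mylip, which degrades the LDL receptor, averaged 31.6 CPM in Slc26a4+/+ and 258.6 CPM in Slc26a4-/- cells of run date 2, and 1.63 and 35.7 CPM in run date 4. Vldlr, a lipoprotein receptor, averaged 150.5 and 10.8 CPM, and 79.5 and 15.5 CPM.

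Thrsp (ENSMUSG00000035686, chr7:97412938-97417730, minus strand) stood in run date 2 at 493, 1796 and 471 CPM in Slc26a4+/+ sessions of at least 2 cells and at 33.1, 22.4, 6.35, 0.982 and 43.9 CPM in Slc26a4-/- sessions. In run date 4 it stood at 1143, 697 and 726 CPM against 46.2 and 167.4 CPM, with Slc26a4+/- sessions between them at 662, 357 and 338 CPM. These sessions did not overlap, although 1 Slc26a4-/- cell of P29 in run date 2 held 632 CPM. Unlike Cyp51, Dhcr7 and Fasn, Thrsp was also apart from the Slc26a4+/+ sessions of every run date, which ran from 226.98 to 1796 CPM against 0.982 to 167.4 CPM. The log2 ratios were -4.13 and -3.16, opposite in sign to those of Fasn in the same cells. The study had already reported Thrsp among genes lower in intermediate cells of Slc26a4-/- mice. That report used these same data, so the fall of Thrsp here is not independent of it.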

How the data were processed

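Single cells were drawn by micropipette from dissociated stria vascularis and made into Smart-Seq2 libraries by PCR without molecular identifiers, so counts are not independent molecules. Intervals on shares of cells cover counting error only. Intervals on ratios of counts treat counts as independent and leave out amplification and the spread between cells. The authors pseudoaligned the reads with kallisto (GRCm38), and the deposited gene table holds whole-number estimated counts per gene and cell, used as CPM of each cell's total. The deposited transcript files hold TPM, summed per gene through GENCODE M21 as an alternative (1376 of 98492 transcripts had no match, a median of 0.691% of estimated counts). Of the 298 columns, 17 that match no cell analysed here were not used.

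Cells were clustered in Seurat 5.3.0 (2000 variable genes less 15 pathway genes, 10 components, resolution 0.8), and clusters were named from marker lists. Both clusters with the IMC markers were joined after the clusters were seen, and 224 of 225 named cells had the same type by marker score. Doublets were not called, and 38 cells had their highest pair of marker scores within 0.25. Run date and collection day were read from library names.

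Ratios were of mean CPM plus 1, for genes with a mean of at least 10 CPM. All members were accounted for, and those called in both run dates or with the largest leads of a cell type (at most 5 a type) are given by session. The members and lists were chosen with earlier results of these data known. Alternatives were TPM, edgeR 4.0.16 TMM scaling, the mean of log2 values, a filter on cells, marker-score cell types, other resolutions, pathway genes kept in clustering, other pseudocounts, fold limits and filters, equal session weights, and leaving out sessions or run dates. The steps were tested on simulated data. Promoters came from RefSeq (GRCm38.p6).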

Additional observations from a re-analysis of the deposited data

Results flagged for a closer look

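Session means of IMC-like cells held 1 session far from the others in 8 of the 24 groups checked. The rule marks about 5% of groups where values are independent and normally spread. These session means were skewed, and the groups shared the same sessions, so 8 of 24 is not set against that rate. In Slc26a4+/+ cells of run date 1, over 4 sessions, the highest session stood at 140.3 CPM for Fdft1 (next 18.03), 11.6 CPM for Tm7sf2 (next 0.935), 435 CPM for Dhcr7 (next 9.02) and 38.4 CPM for Cyp46a1 (next 2.30). In Slc26a4+/+ cells of run date 3, over 8 sessions, it stood at 203.9 CPM for Fdps (next 68.8) and 42.9 CPM for Tm7sf2 (next 14.9). In Slc26a4-/- cells of run date 2, over 5 sessions, it stood at 890.9 CPM for Fdft1 (next 184.7). For Cyp46a1 it stood at 0.152 CPM, from 1 count, where the other 4 were at 0.

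Tm7sf2 had a log2 ratio of Slc26a4-/- to Slc26a4+/+ cells of 2.94 in IMC-like and of -1.90 in RC-like cells of run date 4, with the sessions apart in opposite directions. The difference between the cell types was not tested.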

How the results depend on the processing

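Over the summary values, 85 of 93 changes of setting kept the value and 8 moved it, and the cause was not tested. Kept does not mean unchanged. A count was kept where it stayed within a set fold of the main count. A median was kept where it moved by less than its SD over sessions. The RC-like median thus counts as kept, although its sign turned by marker score and with sessions weighted equally. The members called for a cell type fell from 10 to 6 with the mean of log2 values and to 3 with types from marker scores. The members higher in Slc26a4-/- IMC-like cells rose from 6 to 11 with pathway genes kept in clustering. There the members took part in choosing the cells, and other cells were compared. Only 85 cells (38 Slc26a4+/+) were IMC-like, and a cluster of 88 cells, 63.6% scoring highest for IMC, was not named. Shares of all genes are not given for these settings, so the counts describe the settings and not the members. The sterol synthesis median (log2) of run date 2 rose from 0.81 to 1.71 with pathway genes kept. The median of run date 4 moved from 1.2 to 1.42 with TPM, 2.74 with the mean of log2 values and 0.98 with 10 CPM added. That of Slc26a4-/- against Slc26a4+/- cells moved from 0.47 to 1.86 with the mean of log2 values.

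Signs turned with the mean of log2 values for the leads of Mvk (-0.48), Pmvk (-0.12), Cyp51 (-0.026) and Apoe (-0.63), for Abca1 in Slc26a4+/- against Slc26a4+/+ cells (-0.10), for Insig1 in Slc26a4-/- against Slc26a4+/- cells (0.10) and for Lss in RC-like cells (0.52). They turned for Fasn (-0.19, TPM) and Pmvk (0.30, equal sessions) in Slc26a4-/- against Slc26a4+/- cells, and for Nsdhl in RC-like cells (-0.89, by marker score or with pathway genes kept). The leads of Mvk (-2.13) and Acaca (-0.11) turned without run date 1, Cyp51 (-0.21) without run date 3 and Tm7sf2 (-2.71) without run date 4.

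Leaving out 1 run date gave 7 to 14 members called by cell type, and leads of -2.13 to 2.24 for Mvk, -0.21 to 1.19 for Cyp51, -2.71 to 1.89 for Tm7sf2 and -0.11 to 1.85 for Acaca. Leaving out 1 session gave 4 to 9 members higher in Slc26a4-/- IMC-like cells, and sterol synthesis medians of 0.58 to 1.31 (run date 2) and 0.84 to 1.93 (run date 4). It gave medians of 0.52 to 1.35 for Slc26a4+/- against Slc26a4+/+ cells, 0.38 to 0.58 for Slc26a4-/- against Slc26a4+/- cells and 1.29 to 4.03 in RC-like cells, where leaving out either session of P34 left too few cells. Cyp51, Dhcr7 and Fasn kept their calls in all 18 omissions. The counts of members called are given without the share of all genes in the same omission. No paired analysis was possible because the results come from no test and the numbers in the labels name single cells.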

Other observations

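The 17 cells of the smaller unnamed cluster, led by Crhbp, Slc26a7 and Vmo1, averaged 74.9 CPM of Dhcr7, 70.7 CPM of Cyp51 and 952 CPM of Apoe in the Slc26a4+/+ cells. The larger unnamed cluster, led by Ighm, cell cycle and blood genes, averaged 3.65 CPM of Dhcr7, 0.419 CPM of Cyp51, 370 CPM of Apoe and 195.1 CPM of Scd1.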
